A study of Mus musculus with 4 samples.

Results

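Gene expression was compared for 7 subunit genes of the GABA-A receptor between primary cultures of mouse cortical neurons and of mouse cortical astrocytes. The genes were Gabra2, Gabra3, Gabra4 and Gabra5, which encode alpha subunits, Gabrb1 and Gabrb2, which encode beta subunits, and Gabrg1, which encodes a gamma subunit. They were read by every probe set of the array whose annotation gives 1 gene symbol and that symbol is theirs, which found 21 probe sets for the 7 genes, of 45037 probe sets and 18160 gene symbols in all. The neuron group was 2 arrays of cells from C57BL6 fetuses at embryonic day 16, kept for 7 days in vitro with 19.4 mM glucose and 1% fetal calf serum. The astrocyte group was 2 arrays of cells from newborn C57BL6 animals, kept for 20 days in vitro with 33 mM glucose and 10% serum. The culture periods are those of the series description. The labels' protocol text gives a single period for all assays, near that of the neurons. Cell type changed together with donor age, medium and culture period, and these cannot be told apart. The replicates are labelled biological, with no statement of separate animals, so p-values measure only the spread between these samples.

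The GABA-A receptor is a chloride channel opened by the transmitter GABA and is assembled from several subunits around a central pore. Alpha and beta subunits form the sites that bind GABA, and a gamma subunit beside an alpha subunit forms the site that binds benzodiazepines. The choice of subunits sets where the receptor sits, at the synapse or outside it, and how it responds to GABA, sedatives and neurosteroids. In the young cortex GABA can depolarise neurons, because their chloride is high before the exporter KCC2 takes over. Astrocytes also carry GABA-A receptors, and the gamma subunit gene Gabrg1 is known for glial expression.

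In mouse, several of these genes are neighbours. By the RefSeq gene order, Gabrg1, Gabra2, Gabra4 and Gabrb1 lie next to each other on chromosome 5, with Cox7b2 as the one protein-coding gene among them. Gabra5 lies beside Gabrg3 on chromosome 7, Gabrb2 beside Gabra6 on chromosome 11, and Gabra3 near Gabre and Gabrq on chromosome X. The 250 bases before an annotated start are printed for 3 of the genes, the neighbours Gabrg1 and Gabra2 and the X-linked Gabra3, all of which were higher in neurons. They come from RefSeq's table for GRCm38.p6, on the minus strand, at chr5:70842618-70842867 for Gabrg1, chr5:71095850-71096099 for Gabra2 and chrX:72656920-72657169 for Gabra3. Capitals mark matches to a searched motif.
Gabrg1: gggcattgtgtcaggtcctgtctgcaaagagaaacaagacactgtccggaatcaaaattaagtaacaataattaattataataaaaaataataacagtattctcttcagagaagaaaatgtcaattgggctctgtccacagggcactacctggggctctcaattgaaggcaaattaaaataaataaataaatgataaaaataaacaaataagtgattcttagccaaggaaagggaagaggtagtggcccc
Gabra2: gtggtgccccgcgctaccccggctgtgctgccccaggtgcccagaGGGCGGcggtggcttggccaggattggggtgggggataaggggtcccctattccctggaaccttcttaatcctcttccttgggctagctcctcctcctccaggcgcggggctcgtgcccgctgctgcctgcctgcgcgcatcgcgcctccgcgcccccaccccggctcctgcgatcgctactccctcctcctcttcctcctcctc
Gabra3: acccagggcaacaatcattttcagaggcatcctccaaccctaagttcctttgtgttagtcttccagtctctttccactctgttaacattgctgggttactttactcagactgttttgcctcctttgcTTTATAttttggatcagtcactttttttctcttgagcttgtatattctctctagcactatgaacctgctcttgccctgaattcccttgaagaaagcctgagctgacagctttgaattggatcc

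The base composition of these windows differed. The Gabra2 window had 70.0% G and C and 18 CpG pairs, that of Gabrg1 35.6% and 1 CpG pair, and that of Gabra3 42.4% and 0 CpG pairs. Over all 32851 windows of this length the medians were 52.4% and 6 CpG pairs. All 7 genes had at least 1 window, 11 in all. The searched motifs, on either strand, were the Sp1 box GGGCGG, the TATA box TATAAA, the cAMP response element TGACGTCA, the Egr site GCGTGGGCG, the proneural E-box CAGATG and the left part of the REST site, TTCAGCACC. Matches to GGGCGG and GCGTGGGCG share letters and can overlap. GGGCGG was in 3 of the 11 windows (32.7% of all windows), for Gabra2, Gabra4 and Gabrb2. TATAAA was in 3 (12.4% of all), which were 1 of Gabrb2 and the overlapping pair of Gabra3. CAGATG was in 1 (14.4% of all), that of Gabra5. The other 3 motifs were in 0 of the 11, against 1.55% of all windows for TGACGTCA, 0.536% for GCGTGGGCG and 0.301% for TTCAGCACC.

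Values are the authors' MAS5 signals, scaled so that each array has the same trimmed mean. Differences are of log2(signal + 12.5) between neurons and astrocytes, so that the fold change of a dim gene is smaller than the ratio of its signals. A fold written as "at least" applies where both astrocyte arrays lay at or under the background. The background is the highest Bacillus subtilis control of the array (21 and 23 in the neuron group, 17 and 15 in the astrocyte group), and that fold uses the signals without the offset. It divides the mean neuron signal by the mean astrocyte background, so the spread between arrays is not in it. A gene's main probe set is its tested probe set with the highest mean. Adjusted p-values are from limma with Benjamini-Hochberg adjustment over the 25019 probe sets bright enough to test, and a gene or probe set was called where this was under 0.05.

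By their main probe sets, 6 of the 7 subunit genes were higher in neurons, 0 were higher in astrocytes and 1, Gabrb1, did not pass the test. Over the 12027 genes tested, 31.0% were called higher in neurons and 31.2% higher in astrocytes. The 6 genes were each at least 2-fold higher, which held for 18.0% of all genes. In these 6 the arrays of the groups did not overlap, and neurons lay above astrocytes without overlap in 41.4% of all genes. The median log2 fold change of the 7 genes was 3.69, against 0.02 over all genes tested. With any 1 array left out the same 6 genes were called. All 7 genes passed the filter on dim probe sets, but those that were near background in astrocytes passed through the neuron arrays.

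Of the 21 probe sets, 16 were tested, and 14 of these were called higher in neurons and 0 higher in astrocytes, against 29.4% of all tested probe sets called higher in neurons. In 15 of the 16 the groups did not overlap with neurons higher, against 40.7% of all tested probe sets. In 6 of the 16 both astrocyte arrays lay at or under background. These cultures are bulk samples, in which fewer cells of a type and less RNA per cell cannot be told apart.

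**Figure D1:**
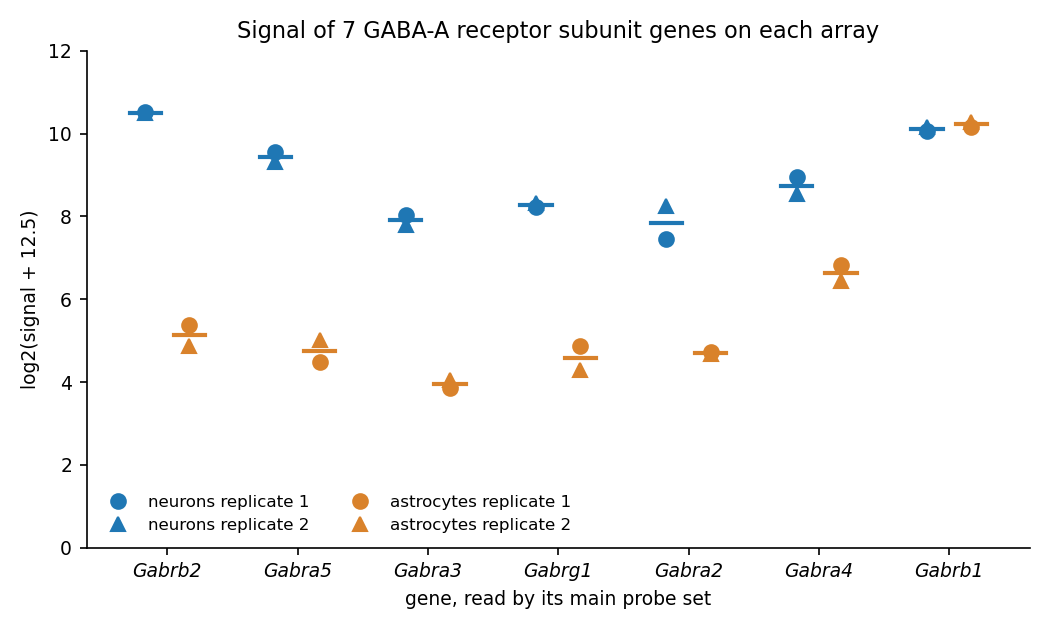
Signal of each subunit gene by its main probe set, as log2(signal + 12.5), with the neuron arrays in blue, the astrocyte arrays in orange, circles for replicate 1, triangles for replicate 2 and bars for the group means. The arrays of the groups are apart for 6 genes and overlap for Gabrb1 (1061 and 1135 in neurons, 1133 and 1234 in astrocytes).

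All 4 alpha subunit genes were higher in neurons. The product of Gabra5 is known for receptors outside the synapse that carry a steady inhibitory current, above all in hippocampus. Its 1 probe set, 1433602_at, gave signals of 736 and 619 in neurons and 10 and 20 in astrocytes. Both neuron arrays were far above background, and 1 of the 2 astrocyte arrays was above it. The log2 fold change of Gabra5 was 4.67 ± 0.22 (SE; 25.4-fold, 95% interval 17.9 to 36.1; adjusted p = 7.57e-07, limma).

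Gabra3 encodes the alpha subunit found in receptors of immature cortex and, in the adult, of monoamine neurons. Its main probe set 1436957_at had 249 and 208 in neurons and 2 and 4 in astrocytes. The astrocyte values were under the background, and the excess in neurons was at least 14.3-fold (log2 fold change 3.96 ± 0.222, adjusted p = 1.80e-06, limma). The other probe set, 1421263_at, was too dim to test. It had 32 and 22 in neurons and 7 and 17 in astrocytes, and the groups did not overlap.

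Gabra2 encodes an alpha subunit of synapses on cell bodies and on the first part of the axon. The main probe set 1421738_at had 162 and 294 in neurons and 14 and 13 in astrocytes. The neuron arrays lay apart from each other, and both were above both astrocyte arrays. The excess was at least 14.2-fold (log2 fold change 3.15 ± 0.28, adjusted p = 2.33e-05, limma). Probe set 1455444_at had 241 and 205 against 0 and 1, at least 13.9-fold, and probe set 1443865_at had 84 and 100 against 3 and 9, at least 5.75-fold. These sets were called as well, with adjusted p = 1.40e-06 and 6.33e-05 by limma. Replicate 2 was the higher neuron array at 1421738_at and 1443865_at and the lower one at 1455444_at. The remaining sets were too dim to test: 1420299_at had 11 and 1 against 2 and 1, and 1449807_x_at had 15 and 27 against 1 and 1.

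Gabra4 encodes an alpha subunit that pairs with the delta subunit in receptors outside the synapse and makes receptors insensitive to classical benzodiazepines. It was the alpha gene with the smallest difference and with signal well above background in both cultures. Probe set 1433707_at had 479 and 360 in neurons and 102 and 74 in astrocytes. Probe set 1429330_at had 205 and 125 in neurons and 46 and 37 in astrocytes. In both sets every array was above its background and the groups did not overlap. The log2 fold changes were 2.10 ± 0.205 (4.30-fold, 95% interval 3.10 to 5.95; adjusted p = 4.01e-05, limma) and 1.68 ± 0.252 (adjusted p = 0.000529, limma). Without astrocytes replicate 2 the second set missed the threshold (log2 fold change 1.56, adjusted p = 0.0519, limma), while the first stayed past it.

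The beta subunits contribute to the GABA site and are needed for the receptor to reach the surface. Gabrb2 was called higher in neurons by all 4 of its tested probe sets. Its main probe set 1429685_at had 1454 and 1434 in neurons and 29 and 17 in astrocytes. The neuron arrays gave nearly the same signal, and the astrocyte arrays were just above background. The log2 fold change was 5.38 ± 0.19 (41.6-fold, 95% interval 30.8 to 56.3; adjusted p = 2.13e-07, limma).

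The other probe sets of Gabrb2 gave smaller differences. Probe set 1428203_at had 909 and 888 against 15 and 23 (log2 fold change 4.87). Probe set 1428204_at had 366 and 381 against 33 and 18 (log2 fold change 3.37), and 1428205_x_at had 285 and 292 against 29 and 19 (log2 fold change 3.06). All 3 were called, with the highest adjusted p = 4.56e-06 (limma). The intervals of the last pair did not reach that of the main set (2.86 to 3.89 and 2.59 to 3.53 against 4.94 to 5.82), so the size of the difference depends on the probe set while its direction does not. Probe set 1450319_at, too dim to test, had 32 and 18 in neurons and 23 and 22 in astrocytes, with overlapping groups.

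Gabrb1 stood apart. Its main probe set 1419719_at had 1061 and 1135 in neurons and 1133 and 1234 in astrocytes. All 4 arrays were far above background, and the groups overlapped. The log2 fold change was -0.11 ± 0.116 (95% interval -0.37 to 0.16; adjusted p = 0.463, limma), so that on the fold scale neurons lay between 0.773 and 1.12 times the astrocyte level. The other bright probe sets lay slightly the other way. Probe set 1435095_at had 506 and 507 in neurons and 420 and 362 in astrocytes, a 1.29-fold excess in neurons just past the threshold (95% interval 1.04 to 1.60; adjusted p = 0.0468, limma). Probe set 1443205_at had 292 and 376 against 271 and 220, and did not pass (log2 fold change 0.42, adjusted p = 0.0715, limma). The call at 1435095_at held in 5 of 12 alternatives and was lost in each fit to 3 arrays, with adjusted p up to 0.200 (limma). Averaging the tested probe sets gave Gabrb1 a log2 fold change of 0.23 (adjusted p = 0.127, limma). The dim probe set 1443834_at had 6 and 1 against 1 and 0. Over the tested probe sets the 95% intervals of Gabrb1 reached at most 0.83 on the log2 scale, and those of the other 6 genes began at 1.11 or higher.

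**Figure D2:**
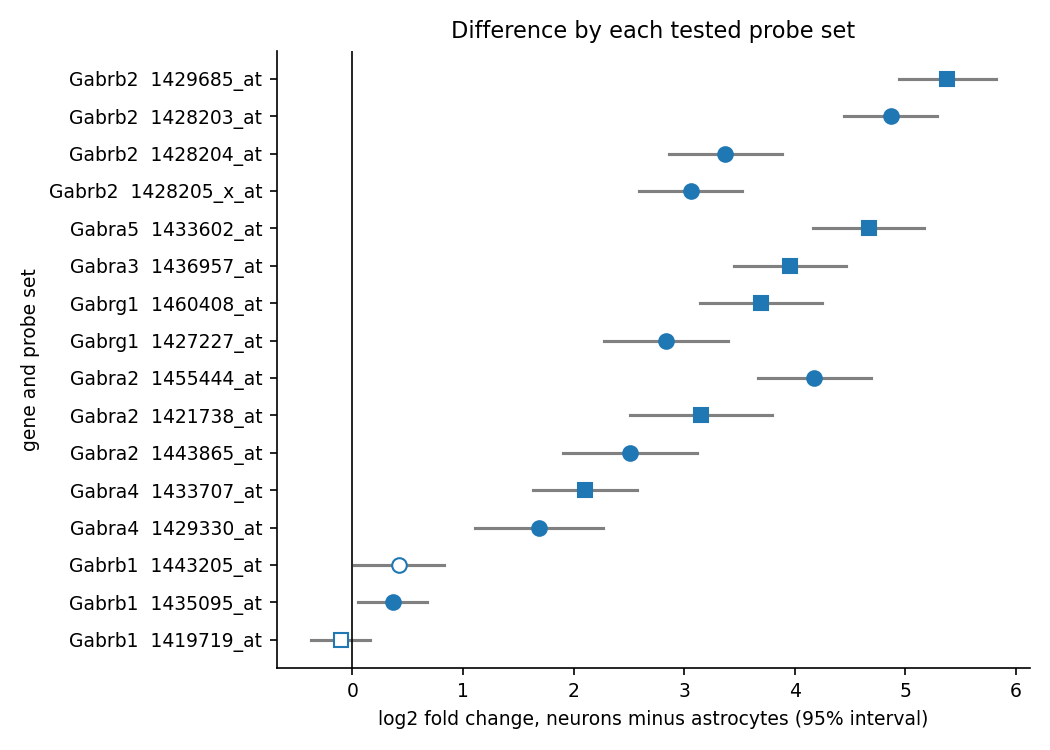
Log2 fold change (neurons minus astrocytes) of the 16 tested probe sets with 95% intervals, grouped by gene. Squares are main probe sets, circles other probe sets, filled symbols adjusted p under 0.05 and open symbols not called. The 3 Gabrb1 sets lie between -0.11 and 0.42, and the 13 sets of the other genes between 1.68 and 5.38.

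Gabrg1 encodes a gamma subunit that can take the place of the more common gamma subunit and alters the response to benzodiazepines. It was higher in neurons by both probe sets. Probe set 1460408_at had 289 and 307 in neurons and 17 and 7 in astrocytes, at least 18.6-fold (log2 fold change 3.69 ± 0.24, adjusted p = 3.94e-06, limma). Probe set 1427227_at had 94 and 109 against 2 and 5, at least 6.34-fold (adjusted p = 2.04e-05, limma). The neuron arrays agreed closely, and none of the astrocyte values exceeded the array's background.

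Set against Gabrb1 on the same array, the subunit genes give the same differences with that of Gabrb1 subtracted. The log2 value of Gabrb2 minus that of Gabrb1 was 0.45 and 0.33 in neurons and -4.79 and -5.40 in astrocytes. For Gabra4 and Gabrb1, whose annotated starts are 387 bases apart on opposite strands with each start inside the other gene, it was -1.13 and -1.62 in neurons and -3.32 and -3.85 in astrocytes. Since probe sets differ in brightness, only the change of these values between cultures can be read, 5.49 for Gabrb2 and 2.21 for Gabra4. The exact permutation test over the 4 arrays (two-sided) gave p = 0.333 for each of the 6 genes set against Gabrb1, also after Benjamini-Hochberg adjustment. This is the smallest p that 2 arrays against 2 allow, so the test cannot show a change in the ratio.

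In the chromosome 5 cluster, Gabrg1, Gabra2 and Gabra4 were called higher in neurons by each of their 7 tested probe sets, and their neighbour Gabrb1 by 1 of 3. Other GABA-A subunits measured were Gabra6, Gabrg3, Gabrd, Gabre, Gabrp, Gabrq, Gabrr1 and Gabrr2, with 14 probe sets in all. Of these 1 was bright enough to test, 1424647_at of Gabrp, the pi subunit, which had 21 and 35 in neurons and 57 and 35 in astrocytes and did not pass (adjusted p = 0.154, limma). The other 13 reached at most 39 on a neuron array and 22 on an astrocyte array. Above background on both neuron arrays were 1445846_at of Gabrg3 (39 and 24, against 10 and 11) and 1449980_a_at of Gabrd, the extrasynaptic delta subunit (37 and 24, against 8 and 10). On both astrocyte arrays the tested set of Gabrp was above background, and 1421629_at of Gabre was just above it. The dimmer set of Gabrp, 1451424_at, lay the other way, with 27 and 15 in neurons and 5 and 6 in astrocytes, under background. Gabra6, known for cerebellar granule cells, had 17 and 20 against 22 and 15 by its brighter set, Gabre 8 and 16 against 20 and 18, and Gabrq 3 and 3 against 2 and 14. The rho subunits, known from retina, had 22 and 15 against 3 and 7 (Gabrr1) and 8 and 1 against 3 and 19 (Gabrr2). Gabrg3 and Gabra6, which adjoin Gabra5 and Gabrb2, thus stayed near background where those genes were bright in neurons.

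Genes for proteins that anchor or move the receptor went both ways. Over all genes tested, 31.0% were higher in neurons and 31.2% in astrocytes, the shares to set beside this list and those below. Of the 20 genes of this list that were tested, 10 were higher in neurons, 4 in astrocytes and 6 did not pass. Their median log2 fold change was 0.55. The largest excess in neurons was that of Nsf, the ATPase that recycles membrane fusion complexes and binds receptor subunits (2028 and 1416 against 201 and 200; 8.02-fold, adjusted p = 2.10e-06, limma). Some genes of the inhibitory synapse are named here after their values were seen. Gphn, for the scaffold gephyrin, had 795 and 683 against 156 and 163 (4.36-fold higher in neurons). Lhfpl4, for a partner that holds the receptor at synapses, was 7.86-fold higher, and Nlgn2, for the adhesion protein of inhibitory synapses, 3.27-fold. The highest adjusted p of these 3 was 9.92e-06 (limma).

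The largest excess in astrocytes was that of Plcl1, for a protein that binds the receptor and its phosphatases (85 and 79 against 451 and 373; 4.48-fold, adjusted p = 1.01e-05, limma). Dmd and Dag1, for dystrophin and dystroglycan, which sit at some inhibitory synapses and also at glial endfeet, were 3.91-fold and 2.49-fold higher in astrocytes. These were also named after their values were seen (adjusted p = 4.57e-05 and 2.37e-05, limma). Gabarapl1, the member with the highest mean, had 2622 and 1554 against 1963 and 2753 and did not pass (adjusted p = 0.506, limma).

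**Figure D3:**
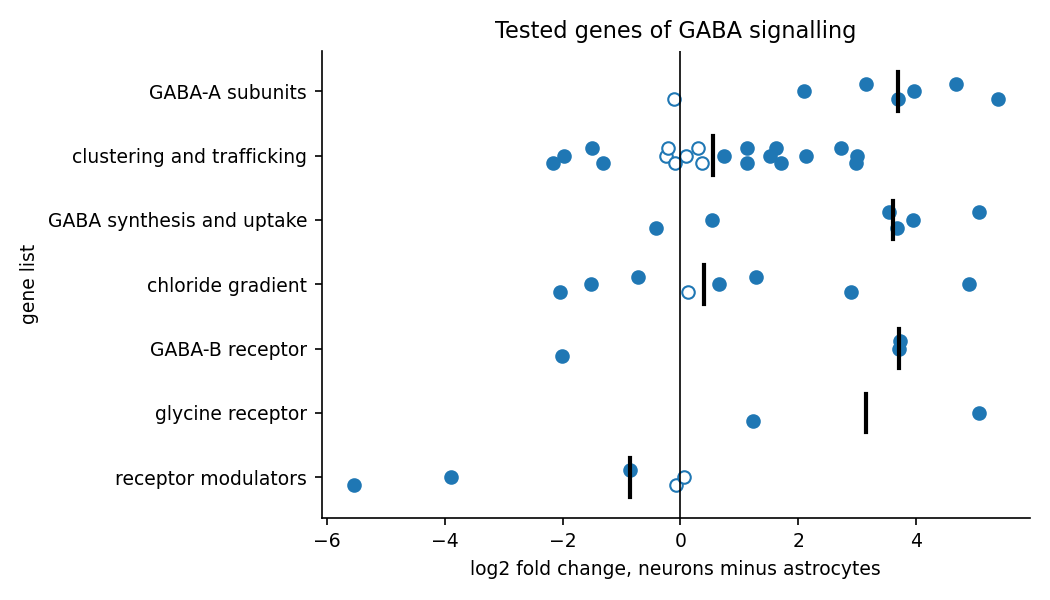
Log2 fold change (neurons minus astrocytes) of each tested gene in 7 lists of GABA signalling, read by its main probe set, with filled points for adjusted p under 0.05 and black bars at list medians. The subunit genes have a median of 3.69 with Gabrb1 near 0, and the receptor modulators a median of -0.86.

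Of 6 tested genes for the synthesis, uptake and breakdown of GABA, 5 were higher in neurons and 1 in astrocytes (median log2 fold change 3.60). Gad1, which makes GABA from glutamate, had 1729 and 1614 against 37 and 39 (33.3-fold, adjusted p = 1.31e-07, limma). Abat, which breaks GABA down, had 811 and 641 against 963 and 977, a 1.34-fold excess in astrocytes (adjusted p = 0.0310, limma). Without neurons replicate 2, astrocytes replicate 1 or astrocytes replicate 2 Abat missed the threshold (adjusted p = 0.150, 0.178 and 0.194, limma), and 0 genes of the list were then higher in astrocytes.

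The direction of current through the receptor depends on the chloride gradient. Of 8 genes for chloride transport and its kinases, 4 were higher in neurons, 3 in astrocytes and 1 did not pass (median log2 fold change 0.39). The shares over all genes tested were 31.0% higher in neurons and 31.2% higher in astrocytes. Slc12a5, for the chloride exporter KCC2, had 2376 and 2011 in neurons and 61 and 61 in astrocytes (29.9-fold, adjusted p = 1.35e-07, limma). Wnk1, for a kinase that acts on these transporters, had 1039 and 1087 against 4364 and 4432, a 4.10-fold excess in astrocytes (adjusted p = 1.04e-06, limma). Slc12a2, for the chloride importer NKCC1, named after its values were seen, had 489 and 605 against 818 and 999 (1.65-fold higher in astrocytes, adjusted p = 0.00402, limma). The call was lost when neurons replicate 1 (adjusted p = 0.0901, limma) or astrocytes replicate 2 (adjusted p = 0.0986, limma) was dropped.

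Related receptors for inhibitory transmitters also differed. Of 3 tested genes of the GABA-B receptor, which acts through G proteins, Gabbr1 (13.1-fold) and the auxiliary subunit gene Kctd16 (434 and 367 against 18 and 19; 13.3-fold) were higher in neurons, and Kctd12b (27 and 32 against 159 and 152; 4.01-fold) was higher in astrocytes, with the highest adjusted p = 4.14e-05 (limma). Both tested glycine receptor genes were higher in neurons. Glra2, for the alpha subunit of embryonic brain, had 440 and 403 against 0 and 1, at least 26.3-fold (adjusted p = 3.56e-07, limma), and Glrb was 2.35-fold higher.

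Of 5 tested genes for ligands and steroids that act on the GABA-A receptor, 0 were higher in neurons and 3 in astrocytes (median log2 fold change -0.86), beside the 31.2% of all genes higher in astrocytes. Akr1c14, for an enzyme that makes the neurosteroid allopregnanolone, had 8 and 38 in neurons and 1578 and 1397 in astrocytes (log2 fold change -5.54, adjusted p = 3.59e-06, limma). Neurons replicate 1 was under its background of 21, and the log2 fold change was -4.89 without that array and -6.19 without neurons replicate 2. Dbi, for the peptide that competes with benzodiazepines, had 7821 and 7012 against 13183 and 13644 (1.81-fold, adjusted p = 0.000106, limma). Tspo, for the outer mitochondrial membrane protein to which that peptide binds, completed the 3 and was 14.9-fold higher in astrocytes (adjusted p = 9.30e-07, limma).

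The genes whose pattern was nearest to that of a subunit were sought by the Euclidean distance over the 4 arrays between log2 values centred on each gene's mean. For Gabrb2 they were Sez6l2, Mpped1 and Gucy1b1 (distance 0.163 to 0.171), for Gabra5 Lmo3, Scn8a and Lrrn1 (0.102 to 0.208), and for Gabra3 Ppfia3, Oprl1 and Gng3 (0.0712 to 0.137). For Gabrg1 they were Elavl3, Nrep and Slc29a4 (0.147 to 0.162), and for Gabra2 Scn1a, Celsr3 and Sox5 (0.103 to 0.299). The sodium channel gene Scn1a had 171 and 312 in neurons and 18 and 15 in astrocytes. Its order of replicates was that of the main probe set of Gabra2, which a choice by distance over the same arrays favours. For Gabra4 they were Dagla, Hecw2 and Kctd4 (0.0549 to 0.163), and for Gabrb1 Npepps, Eef1a1 and Mak16 (0.0130 to 0.0220). With 4 arrays in 2 groups the distance mostly reads the size of the difference.

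The labelled cell types were checked against markers. Of 8 neuron markers, 8 were called higher in the neuron cultures, with a summed signal of 27841 and 27519 against 3075 and 2892. The gene for the neuronal tubulin Tubb3 was 38.0-fold higher, and Snap25, of synaptic vesicle release, had 1 and 2 on the astrocyte arrays. Most of the astrocyte sum came from Map2 (1487 and 1269) and Stmn2 (1465 and 1485), named after their values were seen. These were 3.50-fold and 3.96-fold higher in neurons. Of 9 tested astrocyte markers, 7 had their excess in astrocytes and 1, Slc1a2, in neurons (summed signal 6123 and 6576 against 17789 and 17996). Gfap had 2 and 109 in neurons and 1744 and 2133 in astrocytes, with a log2 fold change of -5.53. This was -4.00 without neurons replicate 1 and -7.06 without neurons replicate 2, and the call was lost when astrocytes replicate 1 (adjusted p = 0.0646, limma) or 2 (adjusted p = 0.0721, limma) was dropped.

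Markers of other cells went both ways. Of 11 markers of inhibitory neurons, 10 had their excess in neurons (summed signal 5737 and 5620 against 894 and 1184), among them Calb1 (1234 and 1021 against 12 and 13). The other, Npy, for the transmitter peptide neuropeptide Y, was higher in astrocytes (251 and 411 against 710 and 1012; 2.58-fold, adjusted p = 0.0014, limma) and made up most of the astrocyte sum. No marker of the list was called higher in astrocytes without neurons replicate 1 or astrocytes replicate 2. Of 7 tested markers of the oligodendrocyte lineage, 5 had their excess in neurons and 1 in astrocytes (summed signal 5397 and 4682 against 4201 and 4612). Without neurons replicate 2 or astrocytes replicate 1 that count fell to 3 higher in neurons. Pdgfra, of oligodendrocyte precursors, which also carry GABA-A receptors, had 1177 and 1302 in neurons and 19 and 21 in astrocytes. The 1 marker higher in astrocytes was Olig1 (2899 and 1895 against 3500 and 3997), which made up most of the astrocyte sum. Olig2 (663 and 642 against 617 and 508) did not pass. In astrocytes 5 of 6 tested microglia markers were higher (summed signal 109 and 145 against 823 and 786), as were 4 of 6 fibroblast markers (504 and 537 against 1738 and 1692; 2 of 6 without astrocytes replicate 2) and 4 of 6 radial glia markers (12608 and 12010 against 25785 and 24707). The fibroblast marker Lum (1.70-fold) and the radial glia marker Hes5 (3.02-fold) were called higher in neurons (adjusted p = 0.0259 and 0.000722, limma). Lum was dim (40 and 45 against 23 and 17), and its call did not hold in every fit with 1 array left out. The endothelial marker Pecam1 had 18 and 3 in neurons and 4 and 2 in astrocytes, and 5 of the 6 endothelial markers were too dim to test. The one tested, Kdr, had 29 and 42 against 50 and 42 and did not pass (adjusted p = 0.331, limma). By its main probe set no marker of these lists was at 0 on any array, but several lay under background. Among them were Calb1 on both astrocyte arrays and, by a probe set too dim to test, Pecam1 on every array. The part of these cells in the subunit differences was not tested.

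**Figure D4:**
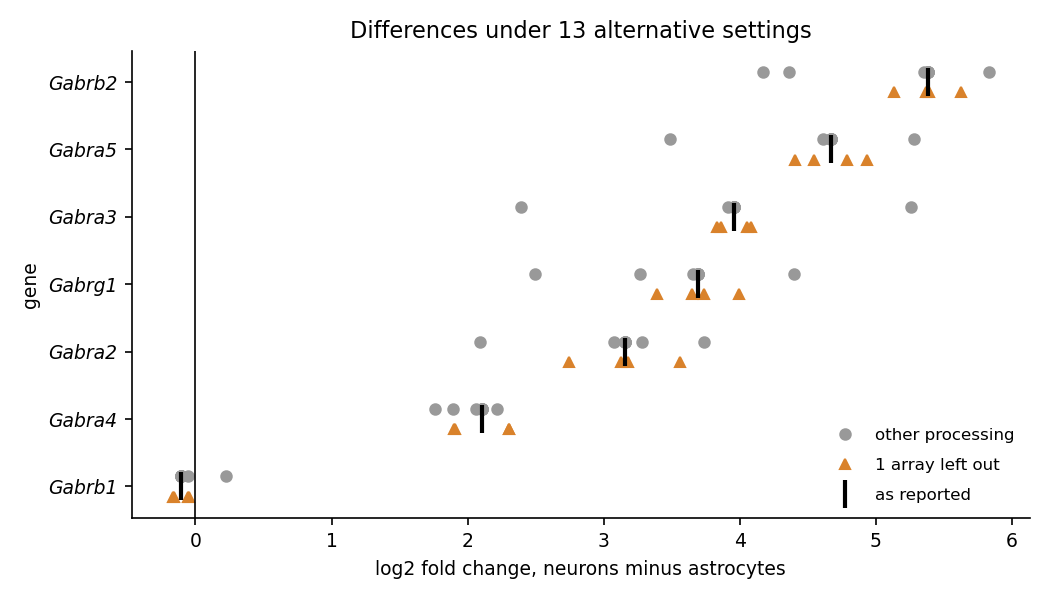
Log2 fold change (neurons minus astrocytes) of each subunit gene as reported (black tick), with 1 array left out (orange triangles) and under other processing choices (grey circles), 13 alternatives in all. Gabrb2 lies between 4.17 and 5.83, Gabra4 between 1.76 and 2.31, and Gabrb1 between -0.17 and 0.23.

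The sizes of the differences depended on the offset where astrocyte signals were low. For Gabra2, Gabra3 and Gabrg1 the folds written as "at least" bound only the astrocyte side, by its background. The spread between neuron arrays is not in them. These genes have no order among themselves or against Gabra5 and Gabrb2. The bounds of their main probe sets were 14.2-fold, 14.3-fold and 18.6-fold. These folds are without the offset and cannot be set against the intervals of Gabra4 (3.10 to 5.95) and Gabrb1 (0.773 to 1.12), which include it. With the offset the intervals of the main sets were 5.70 to 13.9 for Gabra2, 10.9 to 22.1 for Gabra3 and 8.83 to 19.0 for Gabrg1. That of Gabra2 overlapped that of Gabra4, and all of them lay above that of Gabrb1. In 3 genes the main probe set was above background on every array. Of these, Gabrb2 had a 95% interval of 4.94 to 5.82, Gabra4 of 1.63 to 2.57 and Gabrb1 of -0.37 to 0.16 on the log2 scale. With an offset 4 times as large the log2 fold changes were 4.36 for Gabrb2, 3.48 for Gabra5, 2.39 for Gabra3, 2.49 for Gabrg1, 2.09 for Gabra2 and 1.76 for Gabra4. With an offset 4 times smaller they were 5.83, 5.28, 5.25, 4.40, 3.74 and 2.22 for the same genes. All 6 stayed called under each of the 13 alternatives, with the highest adjusted p = 0.0197 (limma), for Gabra2.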

How the data were processed

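Trizol extracts of total RNA (50 ng) went through 2 cycles of cDNA synthesis and were labelled with biotin, per the labels' protocols. Each array holds a linear intensity per probe set that the authors computed with MAS5, a tool named in the submitters' processing notes. The sources used here name no version. The trimmed mean (2% from each end) was between 149.997 and 150.002 on each array. Detection calls were not used here, and the number of arrays limits the precision.

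Of 45037 probe sets without controls, 34945 had 1 gene symbol, 932 several and 9160 none. Symbols were updated by Entrez identifier for 34741. Values were taken to log2(value + 12.5), where the offset is the median over arrays of the 25th percentile. A probe set was tested where its value reached the array's median on at least 2 arrays, and a gene was read by its tested probe set with the highest mean. The two-sided test was limma 3.58.1 (R 4.3.3; lmFit, then eBayes with trend), in which 2 residual degrees of freedom were joined by a prior of 6.27. The fit was also run on simulated data with far fewer changed probe sets than were called here, and its outcome is not used.

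The 7 genes and the lists were chosen with earlier results of these data known. Genes were named by a fixed rule: all 7 with every probe set, the other subunits, the largest change in each direction and the highest mean of each function list, the largest change and first gene of each marker list, and the 3 nearest patterns of each subunit. The genes that this rule picks from the microglia, fibroblast and radial glia lists are not printed. Genes outside the rule are marked or complete a count. Alternatives changed the offset, filter, normalization, choice of probe set, variance model, replicate block and arrays used. RefSeq tables of GRCm38.p6 gave names, gene order and promoter windows. Some further subunits are not reported here.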

Additional observations from a re-analysis of the deposited data

How the results depend on the processing

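The counts of subunit genes called, 6 higher in neurons and 0 in astrocytes, were the same under all 13 alternatives. The median log2 fold change of the 7 genes was 3.69 as reported, 2.39 with an offset 4 times as large, 4.40 with one 4 times smaller and 3.28 with probe sets averaged, and it lay between 3.40 and 3.86 with 1 array left out. Gabrb1 changed sign with probe sets averaged (log2 fold change 0.23, adjusted p = 0.127, limma), where its dimmer probe sets, which lie slightly higher in neurons, enter the mean. Among other genes named, none of them called, Gabarapl1 changed sign without neurons replicate 2 (0.17) and without astrocytes replicate 2 (0.04), in a range of -0.58 to 0.17 with 1 array left out, and Eef1a1 with quantile normalization (0.053); the cause was not tested. Of all genes, 3730 were higher in neurons and 3747 in astrocytes; with 1 array left out these were 2577 to 2659 and 2514 to 2975. Replicate numbers do not pair the samples: neurons and astrocytes came from animals of different age, and deviations of same-numbered arrays correlated at -0.0901 across probe sets. With the replicate block the subunit counts were again 6 and 0, their median 3.69, and the counts over all genes 3671 and 3725. Where astrocyte signals were at or under the background, as for Gabra2, Gabra3 and Gabrg1, the folds written as "at least" bound only the astrocyte side. They leave out the spread between neuron arrays. The log2 fold changes of these genes move with the offset.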
